A study of Mus musculus with 40 samples.

Results

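Thymocyte and T cell genes were examined in lungs of mice with squamous premalignant lesions, as 10 of the 37310 genes in the deposited table. They were taken by name, 5 as genes of immature thymocytes (Rag1, Rag2, Dntt, Ptcra and Themis) and 5 as genes shared by T cells at large (Cd4, Cd8a, Cd8b1, Cd3e and Lck), and measured values played no role in the rule. Lesions were induced in female SWR/J and A/J mice by painting the skin with N-nitroso-tris-chloroethylurea (NTCU), a carcinogen, and polyA RNA from 40 fresh frozen samples was sequenced. A sample was either tissue isolated by laser capture microdissection (LCM), in which chosen cells are cut from a section, or a whole lung section, which holds every cell in the plane of the cut. The 25 samples labelled as passing quality control were used here. Of these, 7 were normal (acetone vehicle, 0 µmol NTCU; 3 LCM and 4 whole lung; 4 SWR/J and 3 A/J). Another 5 were mild dysplasia (15 µmol; 3 LCM and 2 whole lung; all SWR/J). The remaining 13 were high grade (7 LCM and 6 whole lung; 8 SWR/J and 5 A/J). High grade stands for 9 moderate to severe dysplasia samples (14, 25 or 30 µmol), 2 severe dysplasia (50 µmol), 1 carcinoma in situ and 1 squamous cell carcinoma (SCC) tumor (20 µmol each). The mice entered the study at about 8 weeks of age, and their age at sampling is not given in the sources used here. The labels do not say which samples share an animal, so p-values measure only the spread between these samples.

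T cells are made in the thymus, which lies in the chest close to the lungs and heart. There, immature thymocytes cut and rejoin their T cell receptor genes with the RAG1 and RAG2 recombinase, while terminal deoxynucleotidyl transferase (Dntt) adds bases at the joins. The pre-T-cell receptor alpha chain (Ptcra) pairs with the first rearranged chain, and Themis is a signalling protein needed for thymocyte selection. Thymocytes then carry the coreceptors CD4 and CD8 (Cd4, and Cd8a with Cd8b1) together, before they choose between them. Cd3e, a signalling chain of the receptor complex, and the kinase Lck stay on in mature T cells, which have shut off Rag1, Rag2, Dntt and Ptcra. In a normal lung the T cells are mature ones that arrived with the blood.

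Sequences are shown for 3 of the members, chosen because their start regions held a match to a searched motif for factors of the T cell lineage. RefSeq start regions (GRCm38.p6) were found for 8 of the 10 members, and the 250 bases before each start were placed in NCBIM37 (mm9), the build of the files, where each matched once without a mismatch. A few motifs were searched on both strands. The letters CAGGTG make an E box, which E proteins bind, and were present in 17.2% of all 32851 such windows of 250 bases. The letters TGTGGT are bound by factors of the RUNX family and were present in 14.0%. The letters CTTTGA, for the factors TCF and LEF, were present in 13.8% and AGATAA, for factors of the GATA family, in 9.99%. No match found here overlapped another. Capitals mark the matches in the sequences, which run 5′ to 3′ on the strand of the gene.
Rag1 (chr2:101489690-101489939, minus strand): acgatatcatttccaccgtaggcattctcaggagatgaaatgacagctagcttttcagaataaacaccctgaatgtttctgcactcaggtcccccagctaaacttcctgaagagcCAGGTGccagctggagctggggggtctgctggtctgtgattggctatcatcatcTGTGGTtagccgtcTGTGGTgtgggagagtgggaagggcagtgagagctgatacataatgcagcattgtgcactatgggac
Dntt (chr19:41103515-41103764, plus strand): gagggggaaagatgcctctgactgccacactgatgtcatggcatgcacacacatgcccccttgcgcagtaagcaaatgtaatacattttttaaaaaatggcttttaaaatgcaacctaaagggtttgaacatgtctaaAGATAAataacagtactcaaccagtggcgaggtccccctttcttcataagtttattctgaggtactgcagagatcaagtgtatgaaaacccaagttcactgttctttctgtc
Lck, proximal start (chr4:129235617-129235866, minus strand): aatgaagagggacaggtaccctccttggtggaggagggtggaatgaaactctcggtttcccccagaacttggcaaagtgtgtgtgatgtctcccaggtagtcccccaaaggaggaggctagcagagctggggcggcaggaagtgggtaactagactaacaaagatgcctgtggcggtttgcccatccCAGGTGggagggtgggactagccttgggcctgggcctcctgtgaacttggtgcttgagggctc
Lck, distal start (chr4:129250886-129251135, minus strand): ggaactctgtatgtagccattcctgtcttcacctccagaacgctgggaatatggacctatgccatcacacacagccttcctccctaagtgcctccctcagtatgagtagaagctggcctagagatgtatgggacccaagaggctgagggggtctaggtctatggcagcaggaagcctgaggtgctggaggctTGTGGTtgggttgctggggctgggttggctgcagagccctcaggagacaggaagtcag
The Rag1 window held 1 E box and 2 RUNX motifs, at 135, 81 and 67 bases before the start. The Dntt window held 1 GATA motif. The Lck windows held 1 E box in the proximal one and 1 RUNX motif in the distal one. The proximal start of Lck is the one known to be used in thymocytes, and the distal one in mature T cells. The deposited counts are per gene and do not separate them. Of the 10 windows of the members (Lck and Themis have a pair each), 4 held at least 1 of the motifs, against 44.3% of all windows. A match of letters shows no binding.

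Expected counts summed to between 2667390 and 16534743 per library, with a median of 9075419, and the median transcript integrity number (TIN, a measure of RNA integrity) ran from 21.7 to 75.1. Levels are CPM, which scale counts to the size of the library, after TMM scaling, and log2 CPM uses a prior count of 2. In 2 of the 25 samples the written description names another histology than the grade label (normal replicate 10 is described as mild dysplasia and mild dysplasia replicate 5 as normal). The sample type labels were not matched by Sftpc, the surfactant protein gene of alveolar type 2 cells, in every library. It was at 29.4 CPM in normal replicate 6, a library labelled whole lung, but at 5844 CPM in moderate to severe dysplasia replicate 8, a library labelled LCM.

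A subset of libraries held transcripts of thymic epithelium. Psmb11, a proteasome subunit made by epithelial cells of the thymic cortex, lay between 10.1 and 85.3 CPM in 9 of the 25 libraries and at 0.865 CPM or less in the other 16. These 9 libraries were normal replicates 3, 5 and 10 (LCM) and 6 and 9 (whole lung), and moderate to severe dysplasia replicates 4 and 8 (LCM) and 10 and 14 (whole lung). They made up 5 of 7 normal, 0 of 5 mild dysplasia and 4 of 13 high grade samples, 5 of 13 LCM and 4 of 12 whole lung samples, and 5 of 8 A/J and 4 of 17 SWR/J samples. These counts follow the grade labels, and normal replicate 10 is described as mild dysplasia. Other genes of thymic epithelium were high in the same libraries. The chemokine Ccl25 lay between 59.5 and 530 CPM there and at 9.09 CPM or less elsewhere, Tbata between 35.3 and 609 against at most 11.3 CPM, and the thymic protease Prss16 between 59.2 and 491 against at most 10.5 CPM. The transcription factor Pax1 ranged from 2.75 to 54.1 CPM in the 9 libraries and reached 2.63 CPM in the others. Foxn1 (0.744 to 14.9 CPM against 0 to 7.79) and Aire (0.149 to 11.6 CPM against 0 to 1.98) overlapped. Of the 9 thymic epithelial genes listed, 5 (with Psmb11, which set the libraries apart) did not overlap between the 9 and the 16 libraries, against 0.192% of the 15627 genes tested with every one of the 9 above the 16, and the summed level of all 9 genes was 239 to 1826 CPM in the former and 19.6 to 82.2 CPM in the latter. Median TIN was 45.1 to 69.6 in the 9 libraries and 21.7 to 75.1 in the 16. The libraries were not compared by a test, because they are set apart by values measured in them.

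Immature thymocyte genes followed these libraries. Rag1 (chr2:101478439-101489658, minus strand) was at 60.0, 35.9 and 702 CPM in normal LCM replicates 5, 10 and 3, and at 439.5, 1038, 9.09 and 2.13 CPM in normal whole lung replicates 9, 6, 7 and 8. In mild dysplasia it was at 0, 0.351 and 0 CPM in LCM replicates 1, 2 and 5 and at 0.112 and 0.650 CPM in whole lung replicates 3 and 4. In high grade it ran from 0 to 522 CPM with a median of 0.374, and only moderate to severe dysplasia replicates 4, 8, 10 and 14 (522, 165, 328 and 87.0 CPM) were above 6.05 CPM. The 9 libraries with Psmb11 therefore started at 35.9 CPM of Rag1, and the highest of the other 16 was normal replicate 7 at 9.09. Over all 25 libraries, 99.8% of the Rag1 counts came from the 9.

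Rag2 (chr2:101464875-101472685, plus strand), the partner of Rag1 in the recombinase and its neighbour on the chromosome, was at 7.07, 5.84 and 93.4 CPM in normal LCM replicates 5, 10 and 3 and at 48.6, 108.9, 0.866 and 0.610 CPM in normal whole lung replicates 9, 6, 7 and 8. It had 0 counts in 4 of 5 mild dysplasia libraries and 1 count in the fifth (replicate 4), and 0 counts in 9 of 13 high grade libraries. The other 4 high grade libraries were moderate to severe dysplasia replicates 8, 4, 14 and 10, at 20.7, 55.8, 13.7 and 44.4 CPM. Rag2 stayed in a narrow proportion to Rag1 in the 9 libraries, from 0.105 to 0.162 of its CPM. The annotation places the gene B230118H07Rik over both, sharing 1.21% of the exon bases of Rag1 and 6.08% of those of Rag2.

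Dntt (chr19:41103765-41134013, plus strand) was at 69.8, 50.8 and 628 CPM in normal LCM replicates 5, 10 and 3, and at 417.5, 773, 10.4 and 6.71 CPM in normal whole lung replicates 9, 6, 7 and 8. The 5 mild dysplasia libraries held between 0 and 1.02 CPM. In high grade the range was 0 to 591 CPM and the median 0.694, with moderate to severe dysplasia replicates 8, 4, 14 and 10 at 215, 591, 138 and 301 CPM. Its CPM was 0.745 to 1.59 times that of Rag1 in the 9 libraries.

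Ptcra (chr17:46893176-46900542, minus strand) was the weakest member and did not pass the filter on low values, so it was not tested. Among the 25 libraries it was detected in the 9 with Psmb11, at 1.04 to 7.10 CPM, and had 0 counts in the other 16. Every mild dysplasia library was at 0, which a floor of 3 counts over the group turns into a pooled level at least 49.4-fold lower than in normal samples, for counting error only. The annotation used here holds 600 exon bases for it.

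Themis (chr10:28388166-28603624, plus strand) was less tied to these libraries. It was at 26.0, 21.1 and 187 CPM in normal LCM replicates 5, 10 and 3, and at 178, 262, 4.76 and 37.6 CPM in normal whole lung replicates 9, 6, 7 and 8. In mild dysplasia it was at 0.634, 1.58 and 1.70 CPM in the LCM libraries and at 5.89 and 3.16 CPM in the whole lung ones, and in high grade it ran from 0.0711 to 164 CPM with a median of 2.43. Normal replicate 8, without Psmb11, lay above normal replicates 5 and 10, which had it. The 9 libraries (21.1 to 262 CPM) and the other 16 (0.0711 to 37.6 CPM) overlapped for Themis and did not for Rag1, Rag2, Dntt and Ptcra, as was the case for 0.192% of the genes tested, which Ptcra was not.

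**Figure D1:**
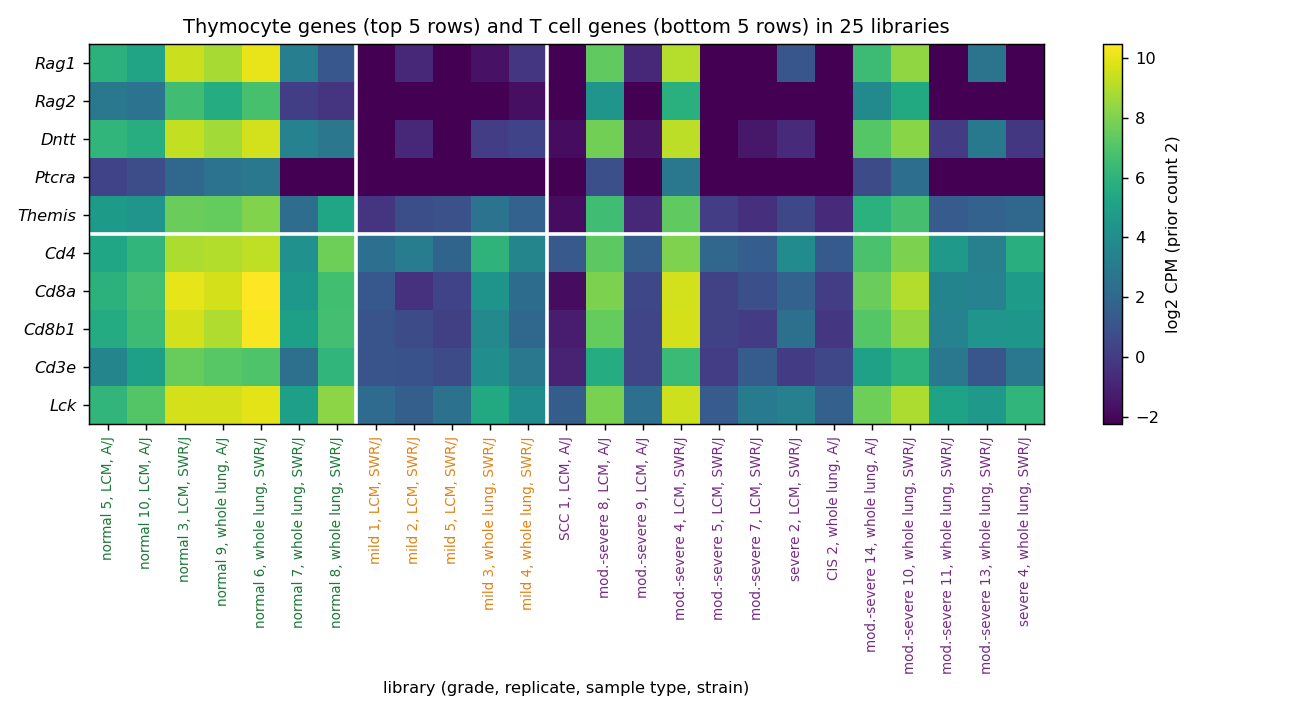
Heat map of log2 CPM (colour scale, prior count 2) of the 5 immature thymocyte genes (top rows) and the 5 T cell genes (bottom rows) in the 25 libraries, in columns grouped as normal (green labels), mild dysplasia (orange) and high grade (purple). The bright columns are the same in both blocks for 9 libraries, 5 normal and 4 moderate to severe dysplasia, while normal replicate 8 is bright in the bottom rows and in Themis but dark for Rag1, Rag2 and Ptcra.

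T cell genes were high in the same 9 libraries, but also reached sizeable levels elsewhere. Cd8a (chr6:71323421-71329165, plus strand) lay between 60.2 and 1411 CPM in the 9 libraries. In the other 16 it lay between 0.0711 CPM in the SCC tumor and 98.1 CPM in normal replicate 8. Its partner chain gene Cd8b1 (chr6:71272830-71287471, plus strand) lay between 46.9 and 1301 CPM and between 0.213 and 99.97 CPM in these sets. All 5 T cell genes overlapped between them.

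By histology, Cd8a was at 60.2, 100.1 and 1026 CPM in normal LCM replicates 5, 10 and 3 and at 798, 1411, 22.9 and 98.1 CPM in normal whole lung replicates 9, 6, 7 and 8. It was at 2.22, 0.527 and 1.05 CPM in mild dysplasia LCM replicates 1, 2 and 5 and at 19.7 and 4.55 CPM in whole lung replicates 3 and 4. In high grade it ran from 0.0711 to 765 CPM with a median of 10.4. The highest mild dysplasia library was thus just below the lowest normal one, and high grade libraries spanned both groups.

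Cd4 (chr6:124814710-124838239, minus strand) was at 37.0, 70.2 and 473 CPM in normal LCM replicates 5, 10 and 3 and at 513, 601, 18.2 and 200.5 CPM in normal whole lung replicates 9, 6, 7 and 8. It was at 5.07, 8.43 and 3.41 CPM in the mild dysplasia LCM libraries and at 65.2 and 11.6 CPM in whole lung replicates 3 and 4, and at 2.28 to 255 CPM (median 14.5) in high grade. Mild dysplasia replicate 3 was inside the normal range. The CPM of Cd4 was 0.333 to 0.701 times that of Cd8a in the 9 libraries, and 0.793 to 32.0 times in the 16, so these sets did not overlap in this ratio. Macrophages and other myeloid cells can also carry Cd4.

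Cd3e (chr9:44806826-44817673, minus strand) was at 11.6, 31.6 and 181 CPM in normal LCM replicates 5, 10 and 3, and at 145, 126, 5.195 and 70.1 CPM in normal whole lung replicates 9, 6, 7 and 8. The mild dysplasia libraries held 1.90, 1.76 and 1.44 CPM as LCM and 15.8 and 7.06 CPM as whole lung. High grade ran from 0.284 to 86.3 CPM with a median of 2.58. Both mild dysplasia whole lung libraries were above the lowest normal one. Lck (chr4:129225588-129250885, minus strand) went from 30.7 to 998 CPM (median 308) in normal, from 2.81 to 44.3 CPM (median 5.64) in mild dysplasia and from 2.49 to 716 CPM (median 24.2) in high grade.

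**Figure D2:**
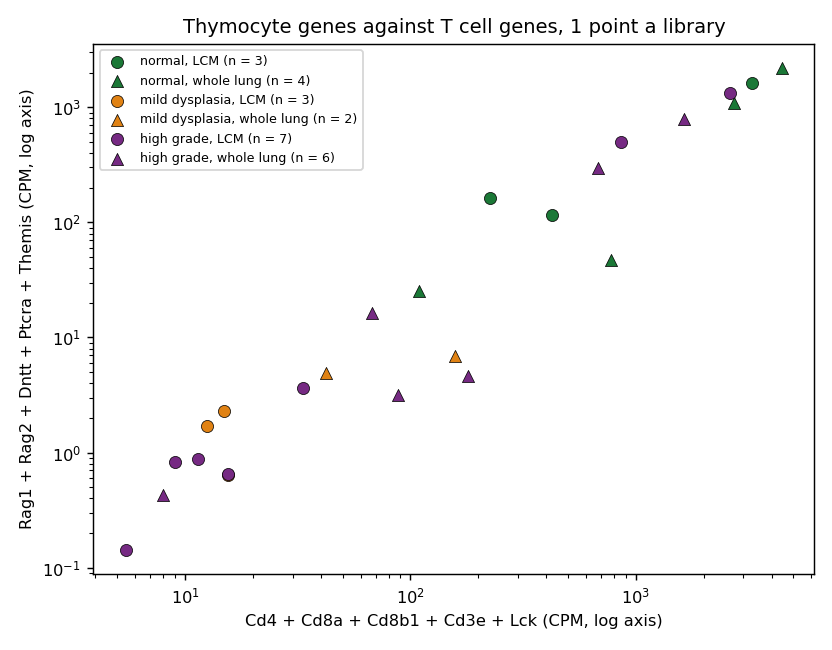
Summed CPM of the 5 immature thymocyte genes (y) against that of the 5 T cell genes (x), both on log axes, with 1 point a library (colour, histology; circle, LCM; triangle, whole lung). The libraries with Psmb11 have immature sums of 115 CPM or more, and normal replicate 8, at 777 CPM of T cell genes, has an immature sum of 47.1 CPM.

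Normal replicate 8, a whole lung library of an SWR/J mouse, separated the gene groups. It held 777 CPM of the 5 T cell genes, more than normal replicates 5 and 10 (225.5 and 426 CPM), but Rag1 at 2.13, Rag2 at 0.610 and Dntt at 6.71 CPM and Psmb11 at 0.152 CPM. Its Rag1 to Cd3e ratio was 0.0304, against 1.14 to 8.26 in the 9 libraries with Psmb11, and its Cd4 to Cd8a ratio was 2.04. Genes of mature and blood-borne lymphocytes were high in it, with the lymph node homing receptor Ccr7 at 199 CPM, the chemokine Ccl5 at 309 CPM and the B cell receptor chain Cd79a at 439 CPM. Mild dysplasia replicate 3 and severe dysplasia replicate 4, both whole lung, came next among libraries without Psmb11, with T cell sums of 158 and 179 CPM, immature sums of 6.85 and 4.66 CPM and B cell sums of 744 and 1521 CPM. Normal replicate 7 and moderate to severe dysplasia replicate 13 had low immature sums of 25.1 and 16.4 CPM, with Psmb11 at 0.433 and 0.865 CPM and median TIN of 28.9 and 23.7. Their Rag1 to Cd3e ratios of 1.75 and 3.0 lay inside the range of the 9 libraries with Psmb11, as did that of severe dysplasia replicate 2 (2.5). This ratio therefore did not separate the 9 libraries from the rest.

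Between genes, levels are given per kilobase of all annotated exon bases, which need not be the length of the transcripts made. Whether RNA integrity changes the order of genes was not tested. In the 9 libraries the median CPM per kilobase of exon was highest for Cd8b1 (240), then Cd8a (163), Lck (161), Dntt (141), Cd4 (61.7), Rag1 (49.7), Cd3e (44.0), Rag2 (12.96), Themis (11.6) and Ptcra (6.55). Their ranges over the 9 libraries overlapped between all neighbours in this order. In the other 16 libraries Lck came first (2.97) and Cd4 next (2.26), the median of Dntt was 0.177 and of Rag1 0.00849, and those of Rag2 and Ptcra were 0.

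**Figure D3:**
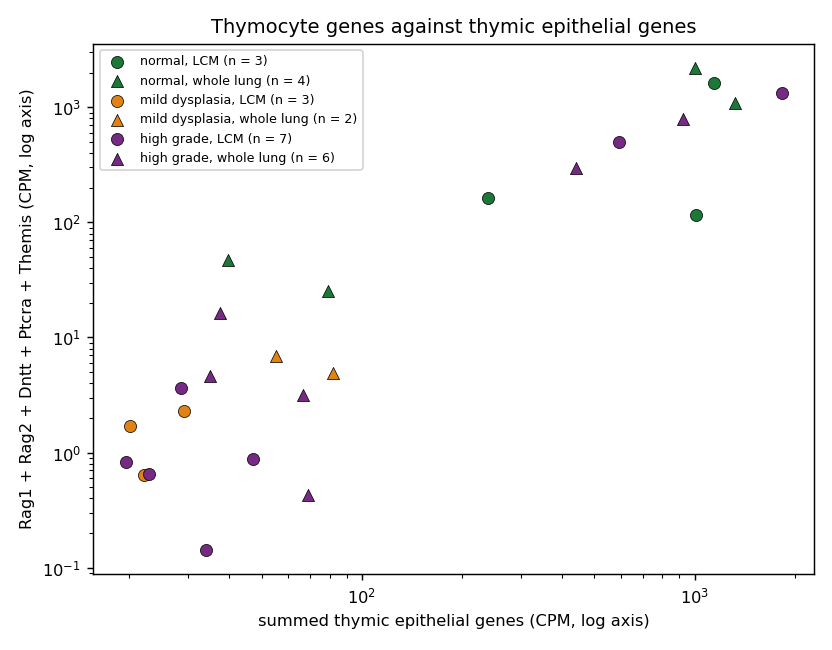
Summed CPM of the 5 immature thymocyte genes (y) against that of 9 thymic epithelial genes (x), both on log axes, with 1 point a library. The 9 libraries at 239 CPM or more of epithelial genes all have immature sums of 115 CPM or more, and the other 16 lie at 82.2 and 47.1 CPM or less.

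The first comparison asked whether these genes differ between high grade lesions and normal tissue. None of the 9 members tested was called (0.0192% of the 15627 genes tested were). The test was edgeR's quasi-likelihood test with median TIN, sample type and strain as covariates, with Benjamini-Hochberg adjustment over all genes tested at 0.05. Fitted log2 fold changes ran from -1.27 (SE 0.93; Cd4) to -0.29 (SE 2.03; Rag2), with adjusted p from 0.682 to 0.974, and no member had an unadjusted p under 0.05. DESeq2 called 0 members as well. Mean log2 CPM of Rag1 was 1.61 ± 4.58 (SD, n = 13) in high grade and 6.26 ± 3.33 (n = 7) in normal. That of Cd3e was 2.42 ± 2.58 and 5.54 ± 1.95. The unadjusted difference of -4.65 for Rag1 shrank to a fitted one of -0.84 (SE 1.72), and the SD within each group was large beside both. In LCM samples alone the fitted direction turned for 7 members, among them Rag1 (1.05, SE 2.38), none of them past the threshold. Fewer cells of a type and less RNA in each cannot be told apart in such bulk samples.

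**Figure D4:**
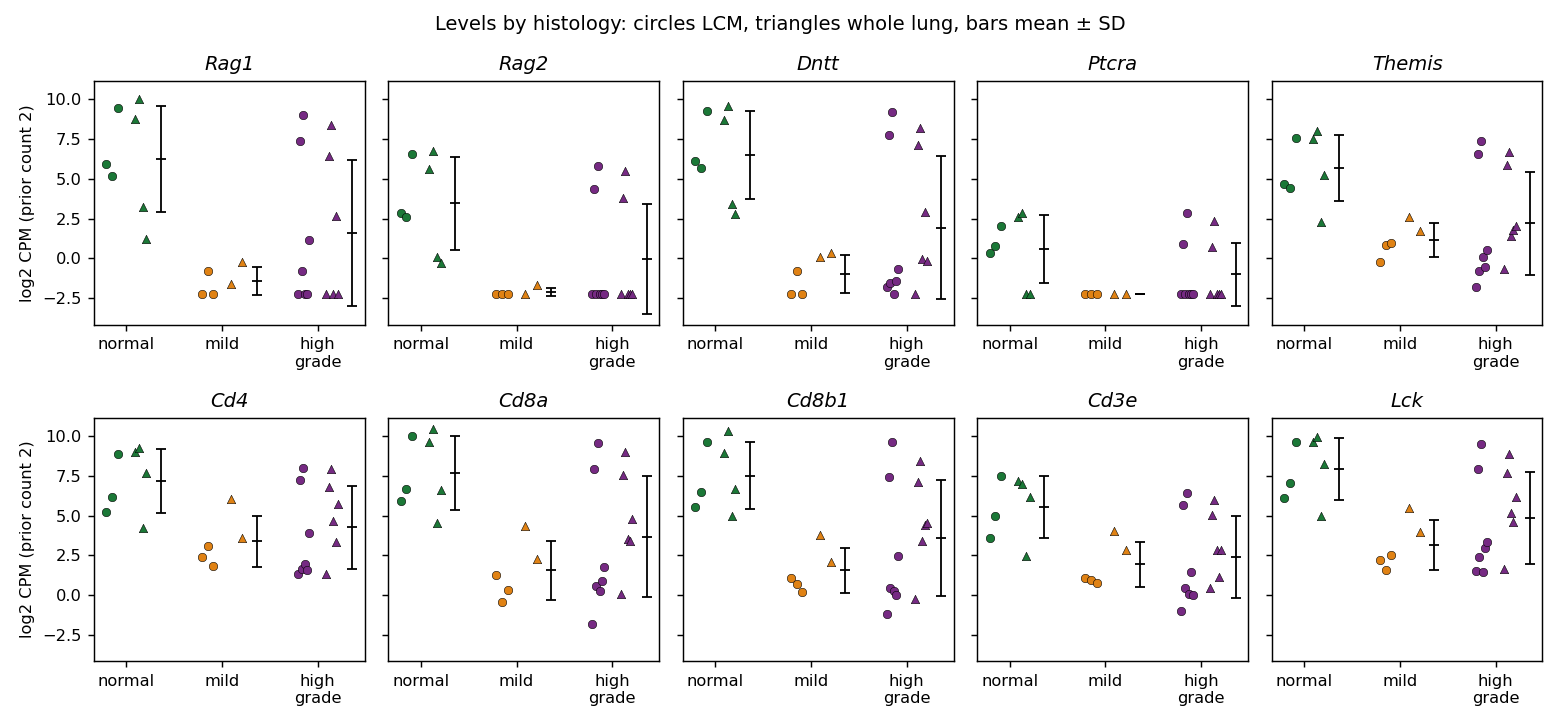
Log2 CPM (y, prior count 2) of each of the 10 genes in normal, mild dysplasia and high grade samples (x), with 1 point a library (circles LCM, triangles whole lung) and bars for the mean ± SD. For Rag1, Rag2 and Dntt 4 of the 13 high grade libraries lie far above the other 9, and the 5 mild dysplasia libraries lie at the low end.

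Mild dysplasia was called lower than normal for Lck, Cd4, Cd3e, Cd8a, Cd8b1 and Themis, against 12.6% of the 15627 genes called in either direction and 7.37% called lower (median log2 fold change -0.03 over all genes). The mean log2 CPM of Lck was 3.16 ± 1.56 (SD, n = 5) in mild dysplasia and 7.95 ± 1.95 (n = 7) in normal, a difference of -4.79, and the fitted log2 fold change was -6.31 (SE 1.61, adjusted p = 0.0236 by edgeR's quasi-likelihood test). The fitted log2 fold change was -4.91 for Cd4 (SE 1.44, adjusted p = 0.0328), -5.17 for Cd3e (SE 1.44, adjusted p = 0.0288), -8.12 for Cd8b1 (SE 2.19, adjusted p = 0.0268) and -8.43 for Cd8a (SE 2.32, adjusted p = 0.0278), all by the same test. Of the immature genes, Themis had a fitted change of -6.44 (SE 1.96, adjusted p = 0.0373 by the same test). The 9 libraries with Psmb11 (5 of 7 normal and 0 of 5 mild dysplasia samples) held most counts of these genes over the 25 libraries. Their share was 97.45% for Cd8a, 97.1% for Cd8b1, 96.2% for Themis, 92.1% for Lck, 89.2% for Cd3e and 88.9% for Cd4. The calls of these genes therefore carry that imbalance of libraries between the groups. Dntt, Rag1 and Rag2 were also below the threshold, which brings the count of calls to 9, but they passed the filter through the libraries where they are high, so their calls are no support for a difference and their levels are a description. The mild dysplasia libraries held 28 counts of Dntt, 11 of Rag1 and 1 of Rag2 in all, so the fitted changes of these genes depend on the prior count and give no bound. The pooled level of Rag2 was 1935 times higher in normal, with an exact 95% interval of 347 to 76430 for counting error only.

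Groups overlapped for some members and not for others. All 5 mild dysplasia libraries were below all 7 normal ones for Rag1, Rag2, Dntt, Cd8a and Cd8b1, as was the case for 0.896% of the genes tested. That order follows the grade labels. By the written descriptions normal replicate 10 (immature sum 115 CPM) would be mild dysplasia, and the order would hold for none of these genes. For Themis, Cd4 and Lck 4 of 5 and for Cd3e 3 of 5 were below every normal library. The 7 normal samples include 3 A/J ones, and mild dysplasia none.

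The mild dysplasia calls rested on few samples. Leaving out mild dysplasia replicate 3 or replicate 4, the whole lung ones, left 0 of 9 members called. Without mild dysplasia replicates 1, 2 and 5 the count was 5, 3 and 2, and without normal replicate 3 it was 2. Mild dysplasia replicate 3 had the highest median TIN of the 25 samples (75.1), and without TIN in the model 6 members were called. No member was called without strain and sample type as covariates, in LCM or in whole lung samples alone, or in all 40 samples. Calls over all genes moved as well. Without strain and sample type 0 genes of any kind were called, and DESeq2 called 3653. Leaving out single samples gave 663 (without normal replicate 3) to 3128 genes (without normal replicate 5). In SWR/J samples alone 9 were called, and without the 2 samples described otherwise 2 were. Leaving out the 9 libraries with Psmb11, which was chosen after seeing the data and leaves 2 normal samples, 6 members passed the filter and 0 were called, each of them with an unadjusted p under 0.05. There, the fitted change of Lck was -3.17 (SE 0.85) and that of Cd3e -2.48 (SE 0.74), with adjusted p of 0.101 and 0.124 in edgeR's quasi-likelihood test.

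**Figure D5:**
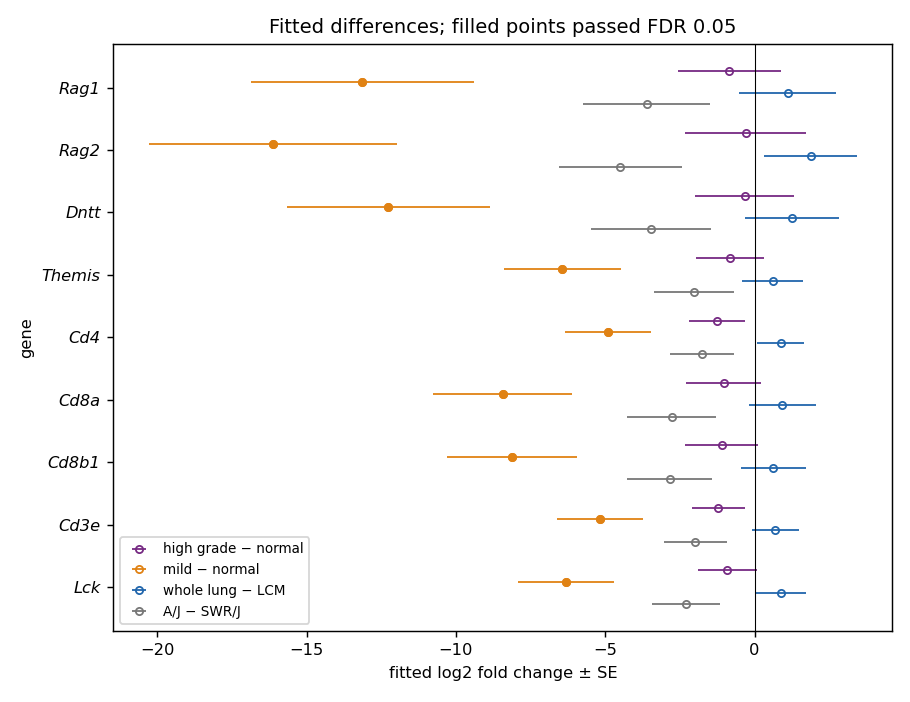
Fitted log2 fold change ± SE (x) of the 9 members tested (y) in 4 contrasts of the model, with filled points for adjusted p under 0.05. Mild dysplasia against normal lies between -16.13 and -4.91 with every point filled, while high grade against normal, whole lung against LCM and A/J against SWR/J have open points throughout. The filled points of Rag1, Rag2 and Dntt are a description and no support for a difference.

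High grade was not called different from mild dysplasia for any member (0 of 9, against 0.339% of genes called), although all 9 had an unadjusted p under 0.05. Fitted log2 fold changes were positive, from 3.64 (SE 1.34; Cd4) to 15.84 (SE 4.33; Rag2), with adjusted p from 0.0684 to 0.120 in edgeR's quasi-likelihood test. DESeq2 called 9 as higher. Leaving out moderate to severe dysplasia replicate 11 gave 6, in a fit that called 1231 genes in all. The 9 members include Rag1, Rag2 and Dntt, whose fitted changes give no bound here either. Their calls and unadjusted p are no support for a difference. Without median TIN 1 member was called, in a fit that called 2344 genes in all. For Rag1, 6 of the 13 high grade libraries were above all 5 mild dysplasia libraries, and for Cd3e 4 were, and these 4 were the libraries with Psmb11. This comparison and the one of mild dysplasia with normal share the mild dysplasia samples.

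Sample type was compared next, since T cells can lie in tissue around the captured cells. No member was called between whole lung and LCM (0 of 9, against 14.7% of genes called), and 0 had an unadjusted p under 0.05, with DESeq2 also at 0. Fitted log2 fold changes were between 0.61 (SE 1.02; Themis) and 1.87 (SE 1.56; Rag2). Median levels were 2.22 CPM in LCM and 25.0 CPM in whole lung for Cd8a, and 1.90 and 11.4 CPM for Cd3e, and each gene ranged widely in both (0.284 to 181 CPM of Cd3e in LCM and 1.17 to 145 CPM in whole lung). Without the 9 libraries with Psmb11, the fitted change of Cd8a moved from 0.93 (SE 1.12) to 2.61 (SE 0.72) and that of Cd8b1 from 0.62 (SE 1.08) to 2.51 (SE 0.68), with adjusted p of 0.0657 and 0.0622 in edgeR's quasi-likelihood test. That fit called 398 genes in all. The exclusion was chosen after seeing the data, by values measured in the libraries, and removes all 3 normal LCM samples. These changes are therefore a description and no support for a difference. The test of whether the high grade effect differs between whole lung and LCM called 0 members (0% of genes called; 1147 of 15627 genes and 0 members had an unadjusted p under 0.05, and DESeq2 called 2 genes, no member).

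The strains were not called different either (0 of 9 members, against 1.02% of genes called). Fitted log2 fold changes of A/J against SWR/J ran from -4.49 (SE 2.05; Rag2) to -1.76 (SE 1.06; Cd4), with adjusted p from 0.262 to 0.432 in edgeR's quasi-likelihood test. Only Rag2 had an unadjusted p under 0.05, and DESeq2 called 0 members. The medians went the other way: Rag1 was at a median of 48.0 CPM in the 8 A/J libraries and 0.650 CPM in the 17 SWR/J ones, and Cd8a at 80.1 and 11.2 CPM. Mild dysplasia was sampled in SWR/J alone.

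Other genes of the lineage were taken from lists chosen with earlier results known. In mild dysplasia against normal, where 7.37% of all genes tested were lower and 12.6% called in all, calls were as follows. Of 14 other thymocyte genes tested, 8 were lower in mild dysplasia than in normal and none higher (median log2 fold change -4.29), among them the chemokine receptor Ccr9, the transcription factors Bcl11b, Tcf7 and Lef1, the chromatin organiser Satb1, and Arpp21 and Endou. Of 19 genes of the T cell receptor complex and its signalling, 17 were lower and none higher (median -4.87), among them the receptor chains Cd3d (-6.28, SE 1.44, adjusted p = 0.0182) and Cd3g (-5.35, SE 1.53, adjusted p = 0.0309), the kinases Zap70, Txk and Fyn, the adaptors Lat, Lcp2, Skap1, Sh2d1a and Trat1, and the surface proteins Cd2, Cd5, Cd6, Cd27, Cd28 and Thy1. The adjusted p are from edgeR's quasi-likelihood test. All calls in these lists are from the fit with every covariate, and without strain and sample type 0 genes of any kind were called. Lat, Cd28, Sh2d1a, Cd6, Cd3d, Cd3g, Zap70, Tcf7 and Lef1 were also among the genes closest in pattern to the T cell members. The counts of these lists are thus not independent of the members' calls. Of 6 genes of mature and recirculating T cells, 3 were lower, among them Ccr7 (-3.40, SE 0.79) and Il7r (-2.37, SE 0.67). Of 7 cytotoxic and effector genes tested, Ccl5, Gzmb and Nkg7 were lower. Of 8 thymic epithelial genes tested, Psmb11, Ccl25, Tbata and Foxn1 were lower. Summed levels of all 9 listed were 20.2 to 82.2 CPM in mild dysplasia and 39.8 to 1320 CPM in normal. Psmb11 set 9 libraries apart, and Ccl25, Tbata, Ccr9 and Arpp21 did not overlap between these and the other 16. None of the 9 libraries was mild dysplasia, so the calls of these 5 genes are a description and no support for a difference. Foxn1 overlapped, but its median was 9.81 CPM in the 9 libraries and 0.254 CPM in the 16, so its call has the same limit. The part of the thymic epithelial genes in the members' difference was not tested.

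Markers of other cells were examined in the same comparison. Of 7 B cell genes 1 was lower (Blk), and 0 of 4 natural killer, 0 of 1 precursor B cell, 0 of 6 dendritic cell, 0 of 6 macrophage, 0 of 6 airway epithelial and 0 of 5 alveolar genes were called, nor was the leukocyte gene Ptprc (adjusted p = 0.0511, edgeR's quasi-likelihood test). Of the precursor B cell genes, which mark the other cells that use RAG, Vpreb1 was at most at 1.87 CPM, Igll1 at 1.78 CPM and Vpreb2 at 0.351 CPM in any library. The fourth of them, Vpreb3, which was the one tested, reached 49.0 CPM in the 9 libraries with Psmb11 and 50.3 CPM in the 16. B cell genes summed to 27.3 to 407 CPM in the 9 libraries with Psmb11 and to 7.97 to 1896 CPM in the 16.

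Between high grade and normal no gene of any of these lists was called. Between whole lung and LCM, the genes called higher were Notch3, Dll4, Fyn, the quiescence and trafficking genes Klf2, S1pr1 and Foxp1 of mature T cells, 5 of 7 B cell genes (Cd22, Cd79a, Cd79b, Ms4a1 and Pax5), Clec9a and Zbtb46 of dendritic cells, Marco of macrophages, and Ager, Lamp3 and Sftpc of alveolar cells, while Cd24a, Hes1, Cd14 and Epcam were lower. Klf2, S1pr1, Notch3, Dll4 and Foxp1 are also used by endothelium or other lung cells. In A/J the natural killer receptor gene Klra8 was lower than in SWR/J, and in the other comparisons no listed gene was called. Klra8 lay at 0 to 0.175 CPM in A/J libraries and at 0.433 to 27.3 CPM in SWR/J ones. Reads of both strains were aligned to mm9, and whether sequence differences between the strains play a part was not tested.

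The genes most like the members in their pattern over the 25 libraries were then listed, as a description. These points share libraries and the same 9 high ones. Closest to the mean standardised log2 CPM of the immature genes were Ccr9 (Pearson r = 0.983, Spearman rho = 0.946), A930002I21Rik (0.979, 0.922), H2-T3 (0.976, 0.904), Ccl25 (0.968, 0.828), Camk4 (0.963, 0.948), Tbata (0.963, 0.859), Psmb11 (0.961, 0.841), Gm15340 (0.961, 0.815), Arpp21 (0.960, 0.892) and Tcf7 (0.942, 0.923). Of these, Ccl25, Tbata and Psmb11 were in the thymic epithelial list. Closest to the T cell genes were Lat (0.983, 0.981), Trbc2 (0.982, 0.968), Cd28 (0.982, 0.984), Sh2d1a (0.982, 0.981), Cd6 (0.981, 0.978), Tcf7 (0.978, 0.932), Lef1 (0.978, 0.968), Cd3d (0.974, 0.957), Cd3g (0.973, 0.976) and Zap70 (0.972, 0.942). No thymic epithelial gene was among the latter.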

How the data were processed

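The authors prepared polyA libraries with the TruSeq RNA kit v2, sequenced single-end reads, trimmed them (Trimmomatic), aligned them to mm9 (STAR) and deposited RSEM expected counts per Ensembl gene, not normalized, with 88.8% of values whole. The kit does not mark strand, so overlapping genes share reads. Here the deposited expected counts were rounded and tested with edgeR 4.0.16 (R 4.3.3) as quasi-likelihood fits with TMM factors on all 25 samples, with histology, median TIN, sample type and strain as terms. Genes with an interquartile range of log2 CPM above 0 and a summed log2 CPM above 1 were kept (15627 genes), which 9 of the 10 members passed. The members, gene lists and the rule for named genes (all members, the called genes of each list and the 10 most similar genes for either group of members) were chosen with earlier results of these data known. DESeq2 1.42.0, other filters, covariates, subsets and leaving out each sample were tried. Replicate numbers only name samples and follow accession order over all 40. The test was checked on simulated data with the same dispersion for all genes and no subset of high libraries. That check does not cover genes spread as widely as the members. Samples that failed quality control were used only where named. Some genes of the lists are counted in them but not reported here by name.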

Additional observations from a re-analysis of the deposited data

Results flagged for a closer look

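Rag2 in mild dysplasia replicate 4 stood apart from its group, at -1.70 log2 CPM (1 count) against -2.22 for the other 4 samples, which had no count. Of 30 groups examined this way, chance alone would mark about 1 in 20 if values were not tied. Here 4 samples were tied at no count, so 1 count in the other sample was enough to mark it. Among the libraries that failed quality control, Cd4 reached 1080 CPM in moderate to severe dysplasia replicate 2 (33 expected counts of 17050 in all), above the highest normal sample at 601 CPM. Of these 15 libraries, 10 had a count of Rag1 (at most 16) and 2 a count of Psmb11 (at most 2).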

How the results depend on the processing

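The count of members called in mild dysplasia against normal (9 of 9) was 9 with DESeq2 size factors, with DESeq2 and in SWR/J samples alone, 10 of 10 with filterByExpr, 8 of 10 without a gene filter and 6 without TIN. It was 2 without the samples described otherwise and 0 without strain and sample type, in LCM samples alone, in whole lung samples alone, in all 40 samples and without the libraries over 5 CPM of Psmb11, and ranged from 0 to 9 when single samples were left out. High grade against mild dysplasia (0 of 9) gave 9 with DESeq2, 1 without TIN and 0 to 6 when single samples were left out. Over all genes, mild dysplasia against normal gave 0 calls (without strain and sample type) to 3653 (DESeq2), and 663 to 3128 with single samples left out. For high grade against mild dysplasia these ranges were 0 to 2344 (without TIN) and 0 to 1231. Counts of 9 or 10 in either comparison include Rag1, Rag2 and Dntt, whose calls are no support for a difference. In the other 4 comparisons 0 members were called under every alternative run. The cause of these changes was not tested. No paired analysis was possible because replicate numbers follow accession order and pair no samples.

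No fit in which a direction turned was past the threshold. With only LCM samples fitted, high grade against normal gave a log2 fold change of 1.05 for Rag1, 4.47 for Rag2, 2.48 for Dntt, 0.91 for Themis, 0.48 for Cd8a, 0.39 for Cd8b1 and 0.12 for Lck. Leaving out single samples it ranged from -1.65 to 0.14 for Rag1, from -0.999 to 0.64 for Rag2 and from -1.33 to 0.47 for Dntt. Whole lung against LCM turned to -0.14 for Dntt in all 40 samples, and in SWR/J samples alone to -0.35 for Themis, -0.10 for Cd8a, -0.38 for Cd8b1 and -0.17 for Cd3e. The difference of the high grade effect between sample types turned, in SWR/J samples alone, to 0.78 for Cd4, 0.16 for Cd8a, 1.06 for Cd3e and 0.56 for Lck. Leaving out single samples it ranged from -3.50 to 0.51 for Rag1, -3.70 to 0.69 for Rag2, -3.11 to 1.28 for Dntt, -3.00 to 0.45 for Themis, -2.40 to 0.24 for Cd4, -3.04 to 0.92 for Cd8a, -2.80 to 0.75 for Cd8b1, -2.22 to 0.90 for Cd3e and -2.20 to 0.83 for Lck. The high ends came without moderate to severe dysplasia replicate 4, one of the libraries with Psmb11, and, for high grade against normal, without normal replicate 9, another of them. Counts near 0 limit Rag1, Rag2, Dntt and Ptcra in mild dysplasia.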
